A study of Mus musculus with 8 samples.

Results

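The nuclear-encoded subunits of oxidative phosphorylation were followed in mouse eosinophils cultured with type 1 or type 2 cytokines. Members were the protein-coding genes of the deposited count table whose symbol marks them as subunits of respiratory complexes I to IV or of ATP synthase (complex V), that is Nduf a, b, c, s or v genes with a number, Sdha to Sdhd, and the Uqcr, Cox4 to Cox8 and Atp5 genes. This rule used no measured level and gave 78 of the 15917 genes in the table: 35 for complex I, 4 for complex II, 8 for complex III, 14 for complex IV and 17 for complex V. Ndufa4 was placed in complex IV, to which its protein belongs, and the supercomplex factor Cox7a2l was counted there too. Cox6c2 and Ndufb4c matched the symbols but are annotated as pseudogenes. Cox4i2, Cox6a2, Cox7b2, Cox8b, Cox8c and Ndufa4l2 were not analysed here. The table held 0 of the 13 mitochondrially encoded protein genes, so the subunits that mitochondria make themselves were not measured.

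Complexes I and II pass electrons from NADH and succinate to ubiquinone, complex III passes them to cytochrome c, and complex IV passes them to oxygen. Complexes I, III and IV pump protons, and ATP synthase uses the gradient to make ATP. Most subunits are encoded in the nucleus and imported. Eosinophils, granule-filled blood leukocytes, draw on both respiration and glycolysis.

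The cells came from blood and were cultured for 18 h in 2 experiments with 4 groups of 2 libraries each. In the first experiment, CN received no cytokine and E1 received IFN-γ and TNF-α at 15 ng/mL. In the second, E0 received 10 ng/mL of IL-5, and E2 received IL-4, IL-5 and GM-CSF at 10 ng/mL and IL-33 at 30 ng/mL. All groups share the strain label C57BL/6 and, by the protocol, the IL-5 transgene of the NJ.1638 line, in which blood eosinophils are expanded, although the genotype label reads WT. The mice's ages were not given in the sources used here. Eosinophils had been enriched by removing CD90- and B220-bearing cells, so the cells are bead-selected transgenic eosinophils and not cells of an unmanipulated mouse. Whether replicates are separate animals or cultures is not stated in the labels, and the p-values measure only the spread between these libraries.

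Library totals ran from 60809057 to 95065752 counts, and members took 0.397% to 0.464% of them. All 78 members passed the filter on low counts. The lowest count of a member in any library was 25, for Cox6b2, followed by 155 for Cox7a1 and 274 for Ndufa12. The 4 libraries numbered 1 carried Y-linked RNA (Ddx3y at 62.5 to 95.6 CPM, against 0 in those numbered 2) and those numbered 2 carried Xist. The 2 libraries of each group thus hold cells of different sex and cannot be cultures of cells from the same animal. The spread between replicates includes that difference. Members were mostly higher in replicate 1 in CN (66 of 78) and E1 (75 of 78), and mostly higher in replicate 2 in E0 (54 of 78) and E2 (67 of 78). All 12 eosinophil markers were present, with summed levels of 7949 to 10166 CPM in CN and E1, 9029 and 9187 CPM in E0, and 7760 and 7865 CPM in E2. In E1 1 of them was called higher and 2 lower, and in E2 3 were called higher and 8 lower (median -0.86), with Ear1 at -2.68, Prg3 at -2.29, Epx at -1.73 and Ccr3 at -1.04, so markers of the studied cells moved in the same comparison as the members. The 11 neutrophil markers in the table summed to 2656 and 3043 CPM with no cytokine (CN) and 1326 and 1789 CPM in E1. They summed to 2773 and 3471 CPM in E0 and 930 and 1323 CPM in E2, so the sum was lower in both stimulated groups. Of the 11, 6 were called lower and 1 higher in E1 (Ly6g, 3.21), and 5 lower and none higher in E2, where Cxcr2 (0.07) and Mpo (0.27) did not pass. The 11 monocyte and macrophage markers summed to 825 to 1275 CPM in CN, E0 and E2 and to 5045 and 5460 CPM in E1, where Ly6c2 was higher by 5.34 on the log2 scale. Elane and C1qa of these lists were not analysed here. No other marker of either list was under 1 CPM in all libraries. The 4 T cell markers analysed, of 8 listed, summed to at most 6.78 CPM. The 7 B cell markers summed to 250 and 242 CPM in CN and 262 and 222 CPM in E1. They summed to 274 and 262 CPM in E0 and 180 and 146 CPM in E2. Ighm made up most of these sums and was called lower in E2 (-1.08), where 3 of the 7 were called higher. The part of other cells in the results below was not tested. In bulk RNA, fewer cells of a type and less RNA per cell cannot be told apart.

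Levels are CPM, counts scaled to a common library size by the trimmed mean of M-values (TMM), log2 fold changes are given ± standard error (SE), and calls rest on edgeR's quasi-likelihood F test over all 15913 genes tested, with the Benjamini-Hochberg adjusted p under 0.05. IFN-γ and TNF-α went with small upward shifts across all 5 complexes. Few of these shifts passed the test in the main fit, which has no term for the replicate number. In E1 versus CN, 5 of the 78 members were called higher and 1 lower, against a background of 9.19% of all genes called higher and 8.08% called lower, and the share of members called higher was 6.41%. Which of the shares was larger depended on the setting. With a term for the replicate number within each experiment (replicate block), 41 members (52.6%) and 17.5% of all genes were called higher. The labels do not pair the replicate numbers. In every group, though, the number goes with the sex of the cells, so the block also takes out that difference, which the main fit leaves in the spread. The members' log2 fold changes were above 0 for 73 of 78, with a median of 0.18, beside a median of -0.01 over all genes. Both E1 libraries lay above both CN libraries for 38 members and below them for 1, and over all genes the shares were 26.5% and 27.5%. The size rested on E1 replicate 1, which was the higher E1 library for nearly all members: the median was 0.08 without it and 0.30 without E1 replicate 2. The count called higher was 1 without E1 replicate 1, 13 without E1 replicate 2, 2 without E0 replicate 1, and 3 when CN replicate 1, E0 replicate 2 or either E2 library was left out. With library totals as the only scaling the all-gene median moved to -0.11, the members' median to 0.08, and 63 members lay above 0, so the distance from all genes stayed 0.19.

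In E2 versus E0 the members spread in both directions. Here 19 were called higher, beside 17% of all genes, and 5 were called lower, beside 18.5%. The share of members called higher was 24.4% and the share called lower 6.41%. With the replicate block, 52.6% of the members and 26% of all genes were called higher, and 8 members and 4369 of all genes lower. The median log2 fold change was 0.17, beside -0.02 over all genes, and 60 of 78 lay above 0. The libraries did not overlap for 46 members higher and 10 lower in E2, where all genes gave 35.9% and 37.2%. The count called higher fell to 5 without E0 replicate 1, 8 without E0 replicate 2, 9 without E2 replicate 1 and 4 without E2 replicate 2, and was 29 without E1 replicate 2. The count called lower was 3 without E0 replicate 1 or without E2 replicate 1.

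**Figure D1:**
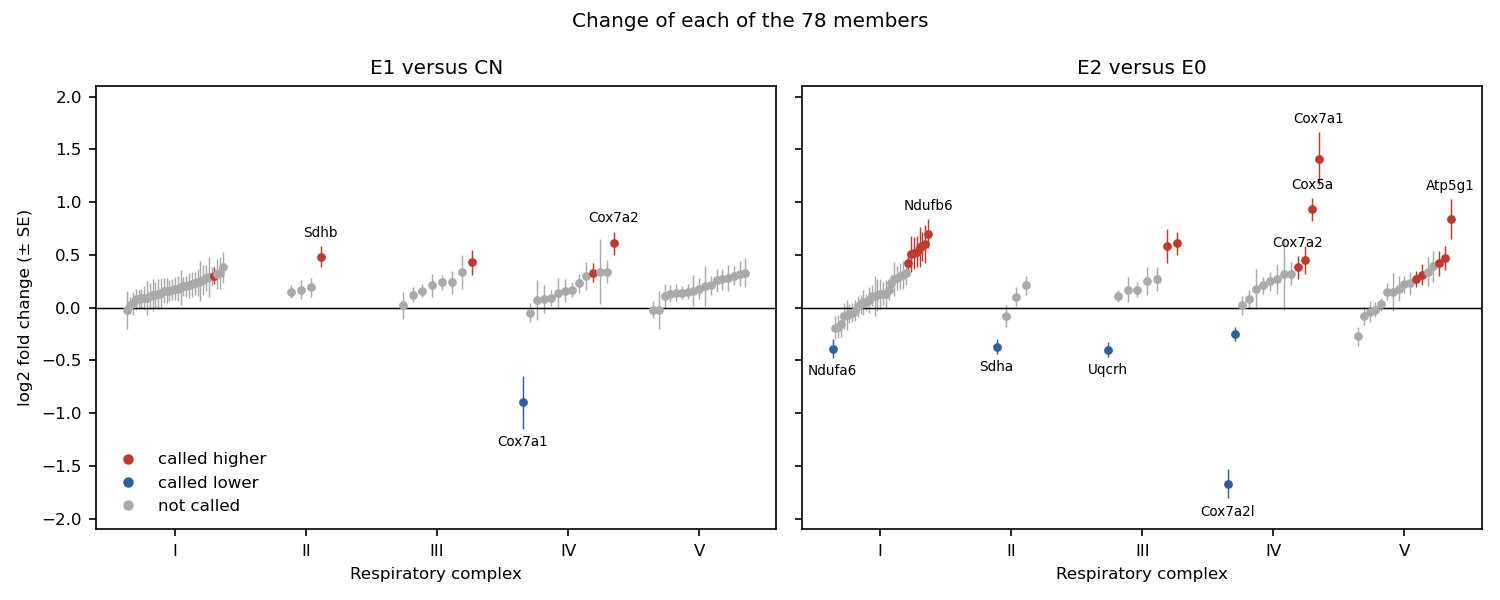
Log2 fold change of each of the 78 members (points, ± SE) by complex, in E1 versus CN and in E2 versus E0, with called members coloured. In E1 nearly all points lie a little above 0 except Cox7a1, whereas in E2 complex IV spans from Cox7a2l at -1.67 to Cox7a1 at 1.41.

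By summed level, all members together stood at 4206 and 4018 CPM in CN and at 4974 and 4340 CPM in E1, 13.3% higher on average. They stood at 3885 and 4083 CPM in E0 and at 4203 and 4491 CPM in E2, 9.13% higher on average. In E1 the mean sum was higher by 11.9% (complex IV) to 17% (complex II). In E2 complex V was highest against E0 at 15.9%, complexes I, III and IV were higher by 8.22%, 9.21% and 5.51%, and the 4 complex II genes stood at -8.67%, with no overlap of the libraries: 288.5 and 308.4 CPM in E0, 262.2 and 282.9 CPM in E2. These sums weigh abundant genes most and carry no test.

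**Figure D2:**
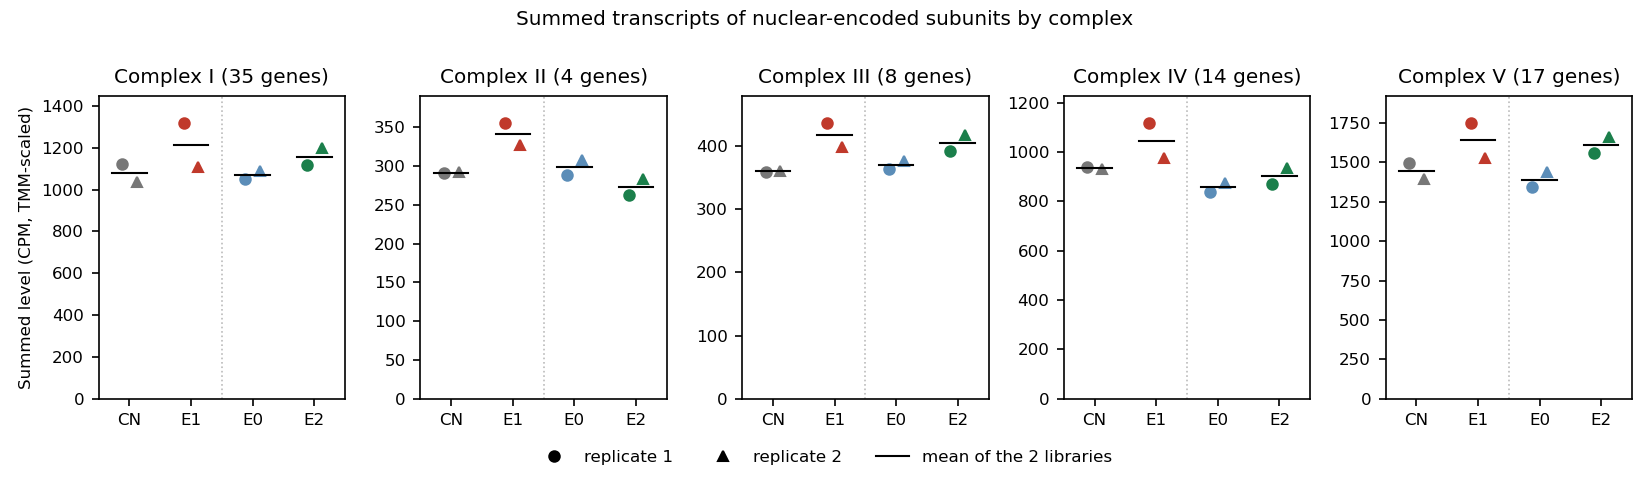
Summed level of the members of each complex in each library, in TMM-scaled CPM on axes that start at 0, with circles for replicate 1, triangles for replicate 2 and a line at the mean. E1 replicate 1 lies above E1 replicate 2 in every complex, and complex II is the complex whose E2 libraries both lie below E0.

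Complex I takes electrons from NADH through a flavin and a chain of iron-sulphur clusters held by core subunits, around which accessory subunits are built. Of its 35 members, 1 was called higher in E1 (2.86%, beside 9.19% of all genes) and none lower. In E2, 8 were called higher (22.9%, beside 17%) and 1 lower (2.86%, beside 18.5%). The 7 core members gave 0 calls in E1, with log2 fold changes of 0.02 to 0.23. In E2 1 of them passed, Ndufv2, an iron-sulphur subunit of the NADH-binding arm, at 26.3 and 30.3 CPM in E0 and 35.8 and 40.1 CPM in E2 (0.42 ± 0.12, adjusted p = 0.0255), which was lost without E0 replicate 1 or either E2 library. The other 6 ranged from -0.19 for Ndufs7 to 0.23 for Ndufs1, the largest iron-sulphur subunit. Nearly all calls in complex I were accessory subunits, which also make up 28 of its 35 members. In E2, 25% of the accessory and 14.3% of the core members were called higher, and the difference between these shares was not tested.

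Among the accessory subunits, Ndufa10 was the member called in E1, at 22.7 and 22.6 CPM in CN and 27.8 and 28 CPM in E1 (0.30 ± 0.08, adjusted p = 0.0332). Its libraries did not overlap, and in E2 versus E0 it stood at 0.05 ± 0.08. The call in E1 held without E0 replicate 2 and was lost when any other library was left out. In E2, Ndufb6 was the accessory subunit with the largest called rise, from 14.7 and 15.5 CPM in E0 to 23.5 and 25.5 CPM in E2 (0.70 ± 0.14, adjusted p = 0.00678). Ndufa12, which sits beside the NADH-binding arm, followed at 4.41 and 4.65 CPM in E0 against 6.34 and 7.38 CPM in E2 (0.60 ± 0.18). Ndufs4, an accessory subunit needed for stable attachment of that arm, stood at 20.2 and 21.1 CPM against 28.5 and 33.1 CPM (0.58 ± 0.14). Groups did not overlap for any of these, and Ndufa5, Ndufc2, Ndufc1 and Ndufa11 were called at 0.51 to 0.57. The call of Ndufb6 was lost without E2 replicate 2, that of Ndufs4 without E0 replicate 1 or E2 replicate 2, and those of Ndufa12, Ndufc2 and Ndufa11 without any 1 library of E0 or E2. Those of Ndufa5 and Ndufc1 held only without E2 replicate 1 among these 4. The exons of Smim27 on the opposite strand cover 39% of those of Ndufb6, Smim27 itself was called at 0.54, and whether counting used strand is not given in the sources used here, so reads of the pair may be shared.

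Ndufa6, a small matrix-side accessory subunit, went the other way from these. It stood at 73.2 and 85.9 CPM in CN and 98.2 and 96.9 CPM in E1. In the second experiment it stood at 70.6 and 66.5 CPM in E0 and 49.4 and 55.4 CPM in E2. It was thus highest in E1 and lowest in E2, with no overlap in either comparison. Its fall in E2 passed (-0.39 ± 0.09, adjusted p = 0.0125), its value in E1 did not (0.29 ± 0.09, adjusted p = 0.0625), and the difference between the responses passed (-0.68 ± 0.13, adjusted p = 0.00615). The call in E2 was lost without E0 replicate 1 or E2 replicate 1. The other accessory subunits that did not pass lay between -0.02 and 0.38 in E1 and between -0.18 and 0.33 in E2.

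Complex II is succinate dehydrogenase, which also belongs to the tricarboxylic acid cycle. Of its 4 members, 1 was called higher in E1 (25%, beside 9.19% of all genes) and 0 lower. In E2, 0 were called higher (beside 17%) and 1 lower (25%, beside 18.5%). Both catalytic subunits lay above 0 in E1 and below 0 in E2, with a different one called in each comparison. Sdhb, the iron-sulphur subunit, stood at 54.8 and 50.4 CPM in CN and at 78.5 and 68.2 CPM in E1 (0.48 ± 0.10, adjusted p = 0.0148). It was called in E1, and the call was lost without CN replicate 2 or without E1 replicate 1. In E0 it stood at 56.1 and 60.7 CPM and in E2 at 51.2 and 59.4 CPM, which overlap (-0.08 ± 0.10). Sdha, the flavoprotein that oxidises succinate, stood at 142.5 and 148.8 CPM in E0 and at 108.4 and 117.6 CPM in E2, a called fall (-0.37 ± 0.07, adjusted p = 0.00341). In the first experiment Sdha was at 143.3 and 152.7 CPM in CN and at 167.9 and 161.1 CPM in E1, which did not pass (0.15 ± 0.06, adjusted p = 0.161). The membrane anchors Sdhc and Sdhd lay at 0.17 and 0.19 in E1 and at 0.21 and 0.10 in E2, with no call. The responses differed for both catalytic subunits, by -0.52 ± 0.09 for Sdha and -0.56 ± 0.15 for Sdhb, the latter lost without CN replicate 2, E0 replicate 2, E1 replicate 1 or E2 replicate 1.

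Complex III holds 3 core and catalytic members here, Uqcrc1, Uqcrc2 and the Rieske iron-sulphur protein Uqcrfs1. All 3 had E1 libraries above CN, and Uqcrfs1 was called, at 27.4 and 34.7 CPM in CN and 41.9 in both E1 libraries (0.43 ± 0.12, adjusted p = 0.0368), a call that held without CN replicate 2 and was lost when any other library was left out. Uqcrc1 (0.24 ± 0.07, adjusted p = 0.0586) and Uqcrc2 (0.16 ± 0.06) did not pass. In E2 none of these 3 was called, with values of 0.11 to 0.17. Cytochrome c1 (Cyc1), also a catalytic subunit of complex III, falls outside the symbol rule and is counted below with the electron carriers. It was called higher in E2, from 31 and 33 CPM in E0 to 45.1 and 49.1 CPM (0.56 ± 0.11, adjusted p = 0.00489). In E1 it stood at 0.05 ± 0.11, and its responses differed by 0.51 ± 0.15 (adjusted p = 0.042). Of the 8 members of complex III, 1 was called higher in E1 (12.5%, beside 9.19% of all genes) and 0 lower. In E2, 2 were called higher (25%, beside 17%) and 1 lower (12.5%, beside 18.5%). These few calls in E2 fell on the small supernumerary subunits, which are 5 of the 8 members, in both directions. Uqcrq rose from 19.5 and 18.7 CPM in E0 to 27.2 and 31.2 CPM in E2 (0.61 ± 0.11, adjusted p = 0.00373), and Uqcrb, which lines the ubiquinone site, rose from 31.2 and 33.8 CPM to 44 and 53 CPM (0.58 ± 0.16), which was lost without either E0 library or without E2 replicate 2. Uqcrh, the hinge protein that links cytochrome c1 with cytochrome c, fell from 81.8 and 83.6 CPM in E0 to 60.8 and 64.4 CPM in E2 (-0.40 ± 0.07, adjusted p = 0.00301). In E1 it stood at 90.5 and 85.5 CPM against 77.1 and 84.4 CPM in CN (0.12 ± 0.07), and its responses differed by -0.53 ± 0.10 (adjusted p = 0.00574).

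Complex IV, cytochrome c oxidase, held the largest member changes of both signs. Its 10 ubiquitous supernumerary subunits surround a catalytic core that mitochondria encode themselves. Of its 14 members, 2 were called higher and 1 lower in E1 (14.3% and 7.14%, beside 9.19% and 8.08% of all genes). In E2, 4 were called higher and 2 lower (28.6% and 14.3%, beside 17% and 18.5%). The changes centred on the COX7A group, in which related proteins occupy corresponding positions: Cox7a2 is the common form, Cox7a1 is the form of heart and skeletal muscle, and Cox7a2l (SCAFI) joins complex III with complex IV in supercomplexes. C57BL/6 mice are known to carry a shortened form of Cox7a2l.

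Cox7a2l stood at 127.9 and 119.3 CPM in E0 and at 37.6 and 39.8 CPM in E2 (-1.67 ± 0.14, adjusted p = 7.95e-05). It stood at 133.6 and 185.5 CPM in CN and at 161.9 and 174.6 CPM in E1, which overlap (0.08 ± 0.13). Both E2 libraries thus lay far below the other 6, and the responses differed by -1.75 ± 0.19 (adjusted p = 0.000411). Cox7a2 was the member that passed in both comparisons in the same direction. It stood at 46.5 and 39.7 CPM in CN and 71.6 and 59.7 CPM in E1 (0.61 ± 0.11, adjusted p = 0.00688), and at 47.3 and 49 CPM in E0 and 59.8 and 65.2 CPM in E2 (0.38 ± 0.11, adjusted p = 0.0324). The call in E1 held without each library in turn, and that in E2 was lost without any 1 library of E0 or E2. Cox7a1, which is low in these cells, moved in opposite directions. It fell from 5.52 and 3.5 CPM in CN to 2.72 and 2.11 CPM in E1 (-0.90 ± 0.25, adjusted p = 0.0403), and rose from 4.26 and 3.28 CPM in E0 to 10.2 and 9.85 CPM in E2 (1.41 ± 0.25, adjusted p = 0.00305). No groups overlapped within either comparison, and the responses differed by 2.31 ± 0.35 (adjusted p = 0.00205). The fall in E1 did not pass with the 4 libraries of that contrast alone, with limma-voom, or without CN replicate 1, E1 replicate 1, E1 replicate 2, E2 replicate 1 or E2 replicate 2.

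As shares of the 3 COX7A genes' summed CPM, Cox7a2l made up 71.3% and 69.5% in E0 and 35% and 34.7% in E2. Cox7a2 made up 26.4% and 28.6% in E0 and 55.6% and 56.8% in E2, and Cox7a1 2.38% and 1.91% in E0 and 9.44% and 8.58% in E2. Per kilobase of exon, Cox7a2l held 59.8% and 58.2% of the group in E0 and 23.6% and 23.5% in E2, so on either scale Cox7a2 was the most abundant in E2 and Cox7a2l in E0. In CN and E1 Cox7a2l held 68.5% to 81.1% of the summed CPM. The summed level of the group was 179.4 and 171.6 CPM in E0 and 107.6 and 114.8 CPM in E2.

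Cox5a, a supernumerary subunit next to the catalytic core, was the other large change. It stood at 48.8 and 57.3 CPM in E0 and at 93.7 and 107.8 CPM in E2 (0.93 ± 0.11, adjusted p = 0.000572), and at 60.2 and 56.5 CPM in CN and 70.2 and 60 CPM in E1, which overlap (0.16 ± 0.11). Its responses differed by 0.77 ± 0.16 (adjusted p = 0.00919). Gm26631, a non-coding transcript of the opposite strand whose exons share 269 bases with Cox5a, was called at 0.92 in E2, so strand and reads of the pair are uncertain as for Ndufb6. Cox4i1, the common form of the largest nuclear subunit, fell in E2 from 112.1 and 116.9 CPM to 95.1 and 97.9 CPM (-0.25 ± 0.07, adjusted p = 0.0207), a call that was lost without any 1 library of E0 or E2. Cox7b rose in E2 (0.45 ± 0.13) and Cox7c rose in E1, from 54.9 and 51 CPM to 69.6 and 63.1 CPM (0.33 ± 0.09, adjusted p = 0.035). The call of Cox7b was lost without any 1 library of E0 or E2, and that of Cox7c without either CN or either E0 library or without E1 replicate 1. Cox6b2, the testis form of Cox6b1, was listed at 0.298 to 0.872 CPM in all libraries. By level per length, as TPM computed from the counts and exon lengths, Cox8a (541 TPM) and Cox6a1 (492.5 TPM) were the most abundant members over all libraries, and neither was called in E1 or in E2.

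**Figure D3:**
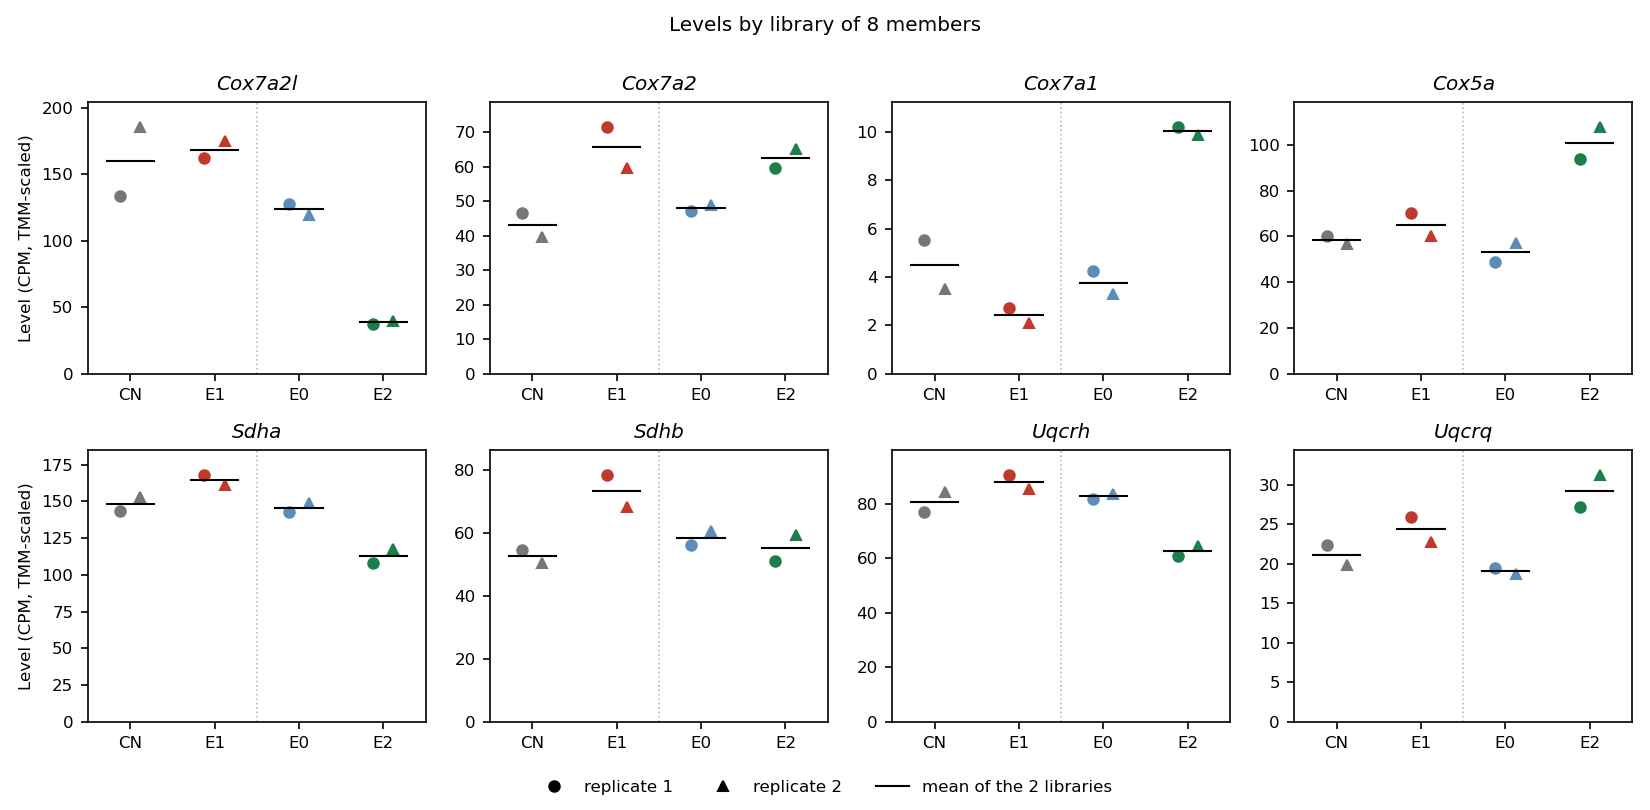
Level of 8 members in each library, in TMM-scaled CPM on axes that start at 0, with circles for replicate 1, triangles for replicate 2 and a line at the mean. Cox7a2l is at 37.6 and 39.8 CPM in E2 and above 119 CPM in all other libraries, and Cox7a1 and Cox5a are highest in E2.

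The stretch upstream of the RefSeq start is shown for the members with the largest called changes in E2, for Uqcrh as a member that fell, and for Cox6a1 as an abundant member with no call that carries 2 matches to a respiratory factor's motif. The sequences are RefSeq's, build GRCm38.p6, 5′ to 3′ on the gene's strand, with motif matches in capitals; they reach up to 250 bases before the start and leave out exon bases of protein-coding genes. The stretches lie at chr17:83514334-83514583 (minus strand, Cox7a2l, inside the outer bounds of the gene in GENCODE, whose start lies farther upstream), chr7:30183921-30184143 (plus, Cox7a1), chr9:57520982-57521231 (plus, Cox5a), chr4:116075072-116075268 (minus, Uqcrh) and chr5:115348982-115349208 (minus, Cox6a1).
Cox7a2l: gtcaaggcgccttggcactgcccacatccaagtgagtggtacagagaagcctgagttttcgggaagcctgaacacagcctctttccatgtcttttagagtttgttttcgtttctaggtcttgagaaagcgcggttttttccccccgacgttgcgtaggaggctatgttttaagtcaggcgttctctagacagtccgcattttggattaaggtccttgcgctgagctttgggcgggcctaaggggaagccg
Cox7a1: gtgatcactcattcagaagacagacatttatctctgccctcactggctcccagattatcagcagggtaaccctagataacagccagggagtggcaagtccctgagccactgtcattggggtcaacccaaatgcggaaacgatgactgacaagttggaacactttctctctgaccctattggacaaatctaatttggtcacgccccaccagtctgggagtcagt
Cox5a: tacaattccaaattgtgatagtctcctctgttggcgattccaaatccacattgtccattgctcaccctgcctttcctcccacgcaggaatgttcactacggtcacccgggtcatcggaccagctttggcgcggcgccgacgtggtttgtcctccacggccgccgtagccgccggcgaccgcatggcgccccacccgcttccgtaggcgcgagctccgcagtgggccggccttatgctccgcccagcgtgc
Uqcrh: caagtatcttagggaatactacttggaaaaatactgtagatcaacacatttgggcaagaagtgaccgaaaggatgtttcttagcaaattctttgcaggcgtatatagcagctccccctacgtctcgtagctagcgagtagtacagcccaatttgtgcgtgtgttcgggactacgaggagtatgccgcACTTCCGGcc
Cox6a1: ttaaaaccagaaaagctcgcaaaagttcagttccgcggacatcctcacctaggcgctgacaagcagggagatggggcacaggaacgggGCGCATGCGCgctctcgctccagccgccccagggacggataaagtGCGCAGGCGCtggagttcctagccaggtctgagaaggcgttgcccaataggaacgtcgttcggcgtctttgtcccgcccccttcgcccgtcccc
The motifs searched on both strands were the palindrome of NRF1, CCGGAAGT (ETS factors such as GABPA) and GATGGC (YY1 core), of factors known for driving nuclear respiratory genes. Of the 78 members, 66 matched the table of promoter windows from 250 bases before to 50 bases after the start, and 12 did not. The NRF1 motif occurred in 17 of 66 member windows (25.8%), beside 7.17% of 17492 protein-coding genes. The latter include genes outside the count table, which holds 12274 protein-coding genes. The median GC content was 58.3% in member windows and 56.3% in those of protein-coding genes, and the part of GC content was not tested. The ETS motif occurred in 7.58% of member windows beside 5.69%, and the YY1 core in 21.2% beside 15.3%. Members with and without the NRF1 motif had median log2 fold changes of 0.24 and 0.17 in E1 and 0.17 and 0.17 in E2. Uqcrh has an ETS match that starts 11 bases before its start, Cox6a1 has NRF1 matches starting 162 and 117 bases before its start, and the shown stretches of Cox7a2l, Cox7a1 and Cox5a have no match.

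Complex V, ATP synthase, joins a rotating ring of c subunits in the membrane to the catalytic F1 head. None of its 17 members was called in E1, where 15 of 17 lay above 0 and the range ran from -0.02 to 0.33. In E2, 5 were called higher (29.4%, beside 17% of all genes) and none lower. Atp5b, the catalytic beta subunit, was the most highly counted of them, at 293.9 and 324.9 CPM in E0 and 372.6 and 393.8 CPM in E2 (0.31 ± 0.10, adjusted p = 0.0396). The peripheral-stalk genes Atp5o and Atp5j passed too, Atp5o at 0.47 ± 0.11 and Atp5j at 0.27 ± 0.08, together with the membrane subunit Atp5k at 0.42 ± 0.12. The calls of Atp5b and Atp5k were lost without any 1 library of E0 or E2, that of Atp5o held without E0 replicate 2 and that of Atp5j without E2 replicate 1 among these. The c subunit is made from 3 genes, Atp5g1, Atp5g2 and Atp5g3, whose mature proteins are identical. Atp5g1 rose from 15.1 and 14.2 CPM in E0 to 26.3 and 26.1 CPM in E2 (0.84 ± 0.19, adjusted p = 0.0101), which was lost without E0 replicate 2 or E2 replicate 1. Atp5g2 stood at 15.7 and 14.2 CPM in E0 and 12.2 and 12.6 CPM in E2, with no call (-0.27 ± 0.09, adjusted p = 0.0559), though its responses differed (-0.48 ± 0.13, adjusted p = 0.0301). That difference was lost without CN replicate 1, E0 replicate 1, E1 replicate 1 or either E2 library. Atp5g3 made up 67% to 71.7% of the trio's CPM in E0 and E2 and was not called.

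Processed pseudogenes with stretches at least 95% identical over at least 100 bases to members' exons were counted in the table, and they behaved differently in the 2 experiments. The 15 such pseudogenes of 13 members summed to 3.39 to 4.51 CPM in CN and E1 and to 52.6 to 60.4 CPM in E0 and E2. Levels of these members were not tested between experiments. Atp5g2, Atp5l and Ndufb4 were lower in E0 than in CN by 1.58, 1.30 and 0.78 on the log2 scale, and experiment, medium and read assignment cannot be told apart. Within the second experiment the copies can be read beside the members. Gm6969, the copy of Cox7a2l, fell with it (-1.67, from 4.91 and 4.83 CPM to 1.69 and 1.36 CPM), Gm10039, a copy of Atp5g1, rose with it (0.93), and Gm2962, a copy of Uqcrb, fell (-2.61) while Uqcrb rose. The other 12 copies were not called in E2. In all, 16 of the 78 members have a near-identical copy of any kind in the table, and 22 share exon bases with another gene of the table, so their counts are uncertain to that extent.

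**Figure D4:**
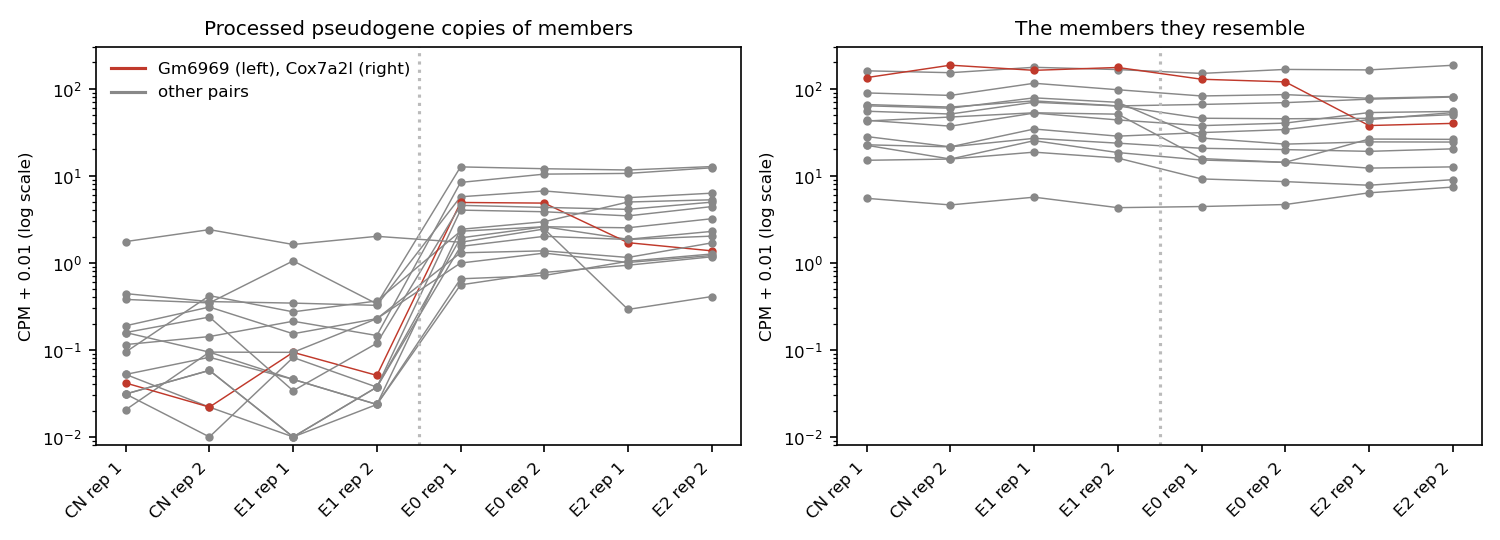
Level of the 15 processed pseudogene copies (left) and of the 13 members they resemble (right) in each library, as CPM + 0.01 on a log axis, with a dotted line between the experiments. The copies sum to at most 4.51 CPM in the first experiment and at least 52.6 CPM in the second, whereas Cox7a2l falls in E2 together with its copy Gm6969.

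The difference of responses, E2 minus E0 less E1 minus CN, was called for 9 members, 2 higher and 7 lower, beside 11.3% and 14% of all genes. Higher were Cox7a1 and Cox5a. Lower were Cox7a2l, Ndufa6, Sdhb, Uqcrh, Sdha, Atp5g2 and Cox4i1. The count higher was 5 without E1 replicate 1, and the count lower was 4 without E2 replicate 1. The experiments were run apart and differ in the control medium, so stimulus and experiment cannot be told apart in this contrast. Over the 78 members the log2 fold changes of the 2 comparisons had a Pearson correlation of -0.20 and a Spearman correlation of 0.07, and without Cox7a1 and Cox7a2l the Pearson value was 0.07, beside 0.21 over all 15913 genes. Both were above 0 for 55 members, E1 above and E2 below 0 for 18, and the reverse for 5.

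Lists of genes that serve the respiratory chain were counted in the same way, and the shares called higher are to be read beside 9.19% of all genes in E1 and 17% in E2. Of 17 electron carriers and entry points, 1 was called higher in E1 (5.88%) and 9 in E2 (52.9%), with 1 lower in E2. Cycs, cytochrome c, which carries electrons from complex III to IV, was called higher in both, at 0.83 and 0.93, and Gpd2 and Etfb, which feed electrons to ubiquinone, rose in E2 by 0.88 and 0.77. Of 50 assembly factors 4 were called higher (8%) and 0 lower in E1, and 9 higher (18%) and 1 lower (2%) in E2. The shares called higher were near those of all genes. The shares called lower were under those of all genes, 8.08% in E1 and 18.5% in E2. Among the assembly factors called higher in E2 was Lyrm7, which serves assembly of complex III, at 1.21. That call was lost without E0 replicate 2 or either E2 library. Of 79 mitochondrial ribosomal proteins 5 were higher (6.33%) and 0 lower in E1 (median 0.19) and 21 higher (26.6%) and 4 lower in E2 (median 0.27). Of 26 import genes 2 were higher in E1 (7.69%), and 11 higher (42.3%) and 2 lower in E2, with Timm23, the inner-membrane channel, at 1.10. Of 22 biogenesis genes 1 was higher in E1 (4.55%; Slirp, 0.70), and 3 were higher (13.6%) and 4 lower (18.2%) in E2. Ppargc1b, a coactivator of mitochondrial biogenesis, stood at 1.51 in E2, and its call was lost without any 1 library of E0 or E2. Of 23 genes of the tricarboxylic acid cycle 3 were higher (13%) and 1 lower in E1, and 8 higher (34.8%) and 1 lower in E2, with Idh3a at 1.71. Idh2 was called lower in both comparisons (-0.40 and -0.27), but in E1 not without CN replicate 1, and in E2 not without any 1 library of E0 or E2. Of 17 carriers and pores 4 were higher in E1 (23.5%), and 7 higher (41.2%) and 1 lower in E2, with Slc25a4, an adenine nucleotide carrier, at 1.03. The phosphate carrier Slc25a3 stood at -0.33, a call lost without E0 replicate 2 or either E2 library. Of 10 antioxidant genes 2 were higher and 2 lower in E1 (20% each), and 2 were higher (20%) and 0 lower in E2. Sod2 and Prdx5 rose in both comparisons, Sod2 by 1.78 and 1.19 and Prdx5 by 1.59 and 0.56. Nnt (-0.51) and Gsr (-0.34), which supply and use NADPH, were lower in E1, the latter not without any 1 library of CN or E1. Of 20 glycolytic genes 4 were higher (20%) and 2 lower in E1, and 12 higher (60%) and 1 lower in E2. As comparison lists, 28 of 31 proteasome genes were called higher in E2 and 38 of 48 cytosolic ribosomal proteins lower, with medians of 0.51 and -0.46. In E1 8 of each were called higher and 0 lower, with medians of 0.23 and 0.19, which lie near the members' 0.18. These lists are described by counts alone, and no difference between lists was tested.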

How the data were processed

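RNA was measured in 8 libraries. The authors deposited raw counts by Ensembl ID. Per the submitters' processing notes, mm10, STAR and featureCounts were used; versions, annotation, strand setting and the handling of multimapping reads are not known from those notes. A row without a gene name equalled the column totals (100% of the counts) and was left out. Symbols matched for 15730 IDs and not for 187, and positions and exon lengths are GENCODE M21.

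The tests ran in edgeR 4.0.16 (R 4.3.3): filterByExpr (4 genes removed), TMM, a mean for each group fitted to the 8 libraries with 4 degrees of freedom left, and the two-sided quasi-likelihood F test with Benjamini-Hochberg adjustment. Library depth limits only the lowest members; 3 counts equal 0.0316 to 0.0493 CPM. The pipeline was tested on simulated data. Genes described most fully were, per complex and comparison, up to 3 called members each way. Members and lists were chosen with earlier results of these data known. Alternatives were DESeq2 1.42.0, limma-voom (limma 3.58.1), other scalings and filters, the 4 libraries of a contrast alone, a replicate block, and leaving out each library. Pseudogene copies were sought with BLAST.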

Additional observations from a re-analysis of the deposited data

Results flagged for a closer look

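For 9 members the test of the difference itself (E2 versus E0 less E1 versus CN, edgeR) passed, and that is what singled them out. Of the members, 2.56% were called higher, beside 11.3% of all genes, and 8.97% lower, beside 14%. In this fit the members as a group were thus called less often than all genes. The differences on the log2 scale were -1.75 for Cox7a2l, -0.68 for Ndufa6, -0.56 for Sdhb, -0.53 for Uqcrh, -0.52 for Sdha, -0.48 for Atp5g2, -0.41 for Cox4i1, 0.77 for Cox5a and 2.31 for Cox7a1. Cox7a1 was called in opposite directions in the 2 comparisons. The differences of Cox5a, Cox7a1, Cox7a2l, Ndufa6, Sdha and Uqcrh passed under every alternative run, and those of Sdhb, Atp5g2 and Cox4i1 did not. The cause was not tested.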

How the results depend on the processing

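Among the calls, 1 of 6 in E1 versus CN (Cox7a2), 6 of 24 in E2 versus E0 (Cox5a, Cox7a1, Cox7a2l, Sdha, Uqcrh and Uqcrq) and 6 of 9 in the difference passed under every alternative run, and no call changed sign. The members' median difference of responses, -0.03, took either sign: 0.06 with library totals alone, and -0.13 to 0.12 with 1 library left out. The share of members called higher in E1 versus CN, 6.41% beside 9.19% of all genes, became 11.5% beside 10.6% with DESeq2 and 52.6% beside 17.5% with the replicate block. In E1 versus CN the members called higher were 2 with the 4 libraries of the contrast alone, 9 with DESeq2 and 2 with library totals alone; the member called lower was 0 with the 4 libraries alone and with limma-voom. In E2 versus E0, 33 were higher with the 4 libraries alone. Leaving out 1 library gave 1 to 13 higher and 0 to 1 lower in E1 versus CN, with a median of 0.08 to 0.30, 4 to 29 higher and 3 to 5 lower in E2 versus E0, and 2 to 5 higher and 4 to 10 lower in the difference. An arm left with 1 library is assumed to vary like the other groups. With library totals alone, 38.6% of the calls over all genes in E1 versus CN were higher, beside 53.2%. Cox6b2 falls out under the stricter filter. With a replicate block, 41 members were higher and 1 lower in E1 versus CN, 41 higher and 8 lower in E2 versus E0, and 15 higher and 16 lower in the difference; over all genes 5520, 8514 and 6821 were called. The labels do not pair the numbers. By Y-linked RNA and Xist, however, the number goes with the sex of the cells in every group, so the block is also a term for sex. Deviations of same-numbered libraries from their group means correlated at 0.499 (CN with E1) and 0.586 (E0 with E2) across genes. The causes were not tested. Groups of 2 limit what small changes can pass.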
